A study of Homo sapiens with 12 samples.

Results

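Type I interferon-stimulated genes were followed in MOLM-13 cells, an acute myeloid leukaemia (AML) line with a translocation that fuses MLL to AF9. The 46 genes, of 46639 gene symbols in the table, were taken by symbol, and the transcript rows of each were summed. RNA was sequenced from 12 libraries in 4 groups of 3: untreated cells, cells given 100 nM decitabine (DAC), a nucleoside that depletes DNA methylation, cells given 1 µM all-trans retinoic acid (ATRA), a ligand of the retinoic acid receptors, and cells given both drugs at these doses (DAC+ATRA). All cells grew in medium with serum and GM-CSF, though the study's methods name the serum without GM-CSF. The sample labels give 96 h for the untreated and 72 h for the treated libraries, whereas the design text and the study's methods place the harvest at 72 h without setting the untreated cells apart. If the sample labels hold, time and treatment cannot be told apart in comparisons with untreated cells. The labels put ATRA, too, at 72 h, whereas the study's methods place it with the last of the daily DAC doses. The replicates were technical triplicates of a single line without a solvent control, so p-values measure only the spread between such replicates.

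Type I interferons bind the receptor IFNAR1/IFNAR2, whose kinases JAK1 and TYK2 phosphorylate STAT2. With IRF9 it acts in the complex ISGF3, which binds the interferon-stimulated response element (ISRE) in the promoters of the induced genes. Some products lead to the decay of viral RNA (OAS1, OAS2, OAS3), sequester it (IFIT family) or make a chain-terminating nucleotide (RSAD2). Others tag proteins with ISG15, restrain viruses at membranes (IFITM proteins, BST2) or feed back on the receptor (USP18). In AML cells the same genes are read as a sign of the viral mimicry that demethylating drugs can evoke from transposable elements.

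The level is given as a normalised count, that is, reads divided by a size factor for each library. Log2 differences are on the scale of log2(normalised count + 1), folds are 2 to the power of those differences, and SE is the limma standard error. A gene was called at a Benjamini-Hochberg adjusted p below 0.01 in a limma fit across 10640 protein-coding genes, of which 41 of the 46 were part. The remaining 5 were not tested. IFI27, a mitochondrial protein, and IRF7, the transcription factor that amplifies interferon production, were listed at 0 in all 12 libraries, and IFIT1, HERC6 and EPSTI1 lay below the minimum of 10 normalised counts in 3 libraries. Counting was done per transcript, and with this counting even B2M, with 6 transcript rows, averaged 125 and TUBB, with 32 rows, 2.31 normalised counts, against 44529 for ACTB with 2 rows. The level of one gene therefore cannot be set against that of another here, and a listed 0 does not show absence of the transcript. Libraries held 4.67 to 11.9 M reads, with means per group of 10.1 (untreated), 5.87 (DAC), 9.32 (ATRA) and 6.42 (DAC+ATRA), so both groups with DAC were shallower. Though CD14 reached only 18 reads, with a lowest value of 0, all 11 markers of myelomonocytic cells had reads in some library. Their summed level, most of it LYZ except with ATRA, went from 59500 to 72154 normalised counts without treatment to 179250 to 224831 with DAC, 20224 to 26202 with ATRA and 64335 to 67083 with the combination. Single markers took other courses, since the mean of FLT3 went from 14027 to 8281 with DAC and 8243 with ATRA, and that of CSF1R from 566 to 506 and 924. The part of these changes in the results was not tested. Of 19 markers of other cell types, 13 had at most 3 reads in every library, 6 of these none at all, and the highest value was 116 reads for COL1A1. Some of these moved with treatment, as COL1A1 had means of 8.03, 21.2, 79.0 and 48.6 normalised counts and CD79A of 3.07, 16.5, 15.6 and 33.8 in untreated, DAC, ATRA and DAC+ATRA cells, and their part in the results was not tested. COL1A2 and MS4A1, which mark the same lineages, were at 0 in all libraries.

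The promoters are shown because the ISRE is the element that ISGF3 binds. The genes themselves were taken by symbol, not by this element. RefSeq promoter sequences on GRCh38.p14 were at hand for 38 of the 46 genes, and the 250 bases before each start were searched on both strands for the ISRE core GAAANNGAAA. It was found in 25 of the 38 genes, or 65.8%, against 3.71% of 27305 genes with a promoter in the table. The 6 promoters below stand for different responses. HERC5, which fell with either drug, and ISG15 come from the ISG15 pathway, IFI44L fell most with DAC, OAS3 fell with DAC and rose with ATRA, and BST2 and LGALS3BP rose with ATRA without a fall with DAC. Capitals mark the ISRE core matches, read 5′ to 3′ on the strand of the gene, and in HERC5 they appear as the reverse complement. ISG15 spans chr1:1013247-1013496, HERC5 chr4:88456869-88457118, OAS3 chr12:112938224-112938473 and IFI44L chr1:78620198-78620447 on the plus strand, BST2 chr19:17405631-17405880 and LGALS3BP chr17:78979924-78980173 on the minus strand.
ISG15: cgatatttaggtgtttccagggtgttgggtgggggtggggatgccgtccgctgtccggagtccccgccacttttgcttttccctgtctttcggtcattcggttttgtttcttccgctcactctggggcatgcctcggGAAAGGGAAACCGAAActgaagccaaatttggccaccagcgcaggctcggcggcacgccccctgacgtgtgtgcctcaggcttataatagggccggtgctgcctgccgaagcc
HERC5: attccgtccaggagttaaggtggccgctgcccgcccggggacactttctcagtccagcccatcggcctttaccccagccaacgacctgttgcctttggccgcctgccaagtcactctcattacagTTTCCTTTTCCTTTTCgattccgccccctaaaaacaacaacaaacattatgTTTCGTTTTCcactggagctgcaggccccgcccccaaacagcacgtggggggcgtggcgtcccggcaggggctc
OAS3: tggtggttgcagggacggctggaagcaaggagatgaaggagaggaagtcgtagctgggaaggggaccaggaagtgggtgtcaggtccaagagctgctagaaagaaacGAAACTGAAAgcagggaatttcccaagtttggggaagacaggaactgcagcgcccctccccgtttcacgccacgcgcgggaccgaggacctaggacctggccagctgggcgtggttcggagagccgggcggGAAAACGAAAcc
IFI44L: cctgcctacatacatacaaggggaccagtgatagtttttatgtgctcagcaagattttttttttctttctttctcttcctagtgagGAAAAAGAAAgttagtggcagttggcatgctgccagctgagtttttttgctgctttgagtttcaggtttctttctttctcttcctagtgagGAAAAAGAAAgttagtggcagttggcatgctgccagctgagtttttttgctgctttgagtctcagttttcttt
BST2: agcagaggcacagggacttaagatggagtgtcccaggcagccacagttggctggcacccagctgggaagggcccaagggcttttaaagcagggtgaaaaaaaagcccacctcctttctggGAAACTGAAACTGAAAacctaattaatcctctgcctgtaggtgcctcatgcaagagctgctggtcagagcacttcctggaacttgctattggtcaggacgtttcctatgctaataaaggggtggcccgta
LGALS3BP: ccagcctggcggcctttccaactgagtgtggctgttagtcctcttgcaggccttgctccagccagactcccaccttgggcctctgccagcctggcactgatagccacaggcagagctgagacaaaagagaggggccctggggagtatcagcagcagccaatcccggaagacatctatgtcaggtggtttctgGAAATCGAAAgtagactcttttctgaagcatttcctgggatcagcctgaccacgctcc

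The ISG15 matches overlap each other, as do those of BST2 and 2 of the 3 in HERC5, whereas IFI44L and OAS3 each carry 2 separate matches. A match describes the sequence alone, and a window without one says nothing of whether a factor binds. The core was present in 10 of 15 genes that fell with DAC and had a sequence (66.7%), in 5 of 7 that rose with ATRA (71.4%) and in 7 of 10 that were called in no comparison (70.0%). It was present in 9 of the 10 with a sequence among the 12 genes in which the effect of DAC differed with and without ATRA, the interaction described further on. The core of the gamma-activated site, TTCNNNGAA, was found in 11 of the 38 genes (28.9%; 8.09% of all genes), with 5 of its matches overlapping an ISRE core, and in 1 of those 10 genes. A retinoic acid response element of the DR5 kind was found in none of the 38 windows and in 24 of all genes (0.0879%).

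DAC alone was compared with untreated cells to ask what the demethylating agent did to these genes. In this comparison 18 of 41 genes fell and 2 rose, whereas 3.67% of all tested genes fell and 4.3% rose. The median log2 difference of the 41 was -0.73, against -0.004 over all genes. By library, the median deviation of the 41 genes from the untreated mean was -0.74, -0.69 and -0.70 in the DAC libraries and 0.02, 0.15 and -0.24 in the untreated libraries. The 18 were IRF9, USP18, ISG15, HERC5, IFIT3, IFIT5, OAS2, OAS3, OASL, RSAD2, CMPK2, DDX60, XAF1, IFI44, IFI44L, DTX3L, PARP14 and TRIM25. TRIM14 and TRIM22 rose. Without untreated replicate 2, in which these genes stood highest, the count was 10: ISG15, HERC5, IFIT5, OASL, CMPK2, DTX3L, PARP14 and TRIM25 were then at adjusted p of 0.015 to 0.0546 (limma). Calls also failed without other libraries, in DTX3L without 11 of the 12 in turn, TRIM25 without 9, CMPK2 without 7, HERC5 without 5, OASL without 3 and IFIT5 without 2. The other 10 kept their call without any single library. With only the untreated and DAC libraries in the fit, 10 fell and 1 rose.

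**Figure D1:**
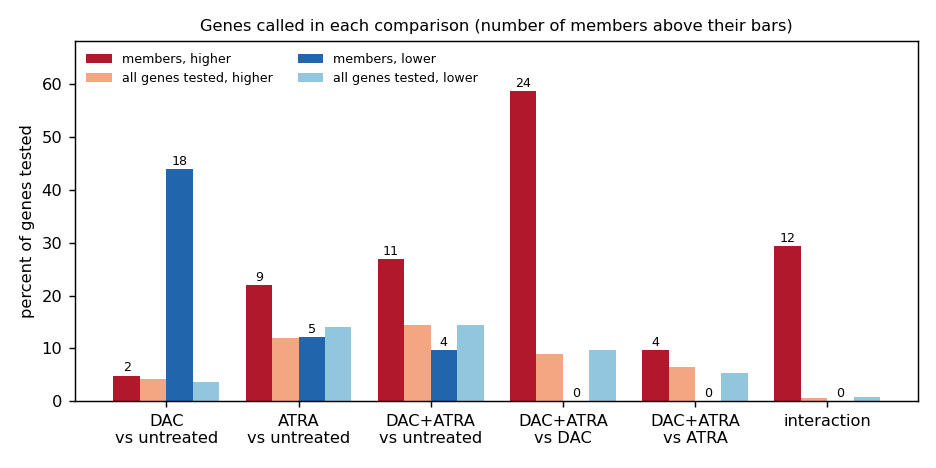
Percent of tested genes called higher or lower (y axis) in each of the 6 comparisons (x axis), for the 41 interferon-stimulated genes and for all 10640 genes, with the number of interferon-stimulated genes above their bars. The bar of genes lower with DAC (18 genes) and that of genes higher in DAC+ATRA than in DAC (24 genes) stand farthest above the bars for all genes.

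ATRA alone was compared with untreated cells in the same way. ATRA raised 9 and lowered 5 of the 41, or 22.0% and 12.2%, whereas it raised 12.1% and lowered 14% of all tested genes, so that the share lowered did not exceed the background, with a median of 0.13 (all genes: -0.04). The 9 were UBE2L6, OAS3, MX2, IFITM3, BST2, LGALS3BP, PARP14, TRIM21 and TRIM22, and the 5 were ISG15, HERC5, OASL, XAF1 and IFI44. MX2, TRIM22 and ISG15 lost their call on leaving out 1 or more libraries, with adjusted p of up to 0.0319 (limma). They did so without untreated replicate 3 (MX2, TRIM22), without untreated replicate 2 or ATRA replicate 2 (ISG15, TRIM22) and without ATRA replicate 3 (TRIM22).

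With the combination, 11 genes were higher and 4 lower than in untreated cells (all tested genes: 14.5% and 14.4%), with a median of 0.16 (all genes: -0.004). The 11 were the 9 raised by ATRA, together with IFI35 and TRIM14, and the 4 were HERC5, OASL, XAF1 and IFI44. These comparisons share the untreated libraries. IFI35 lost its call without untreated replicate 1 or 3 or DAC+ATRA replicate 2 or 3, TRIM21 without untreated or DAC+ATRA replicate 3, and OASL without untreated replicate 2 or DAC+ATRA replicate 1, at adjusted p of up to 0.0391 (limma).

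The combination was then set against DAC alone, a comparison without the untreated libraries. Of the 41 genes, 24 were higher and 0 lower, whereas 9.03% of all tested genes were higher and 9.74% lower. The median was 0.92 (all genes: -0.0005), and 30 of the 41 had an unadjusted limma p under 0.05 in either direction. DESeq2 on the recovered reads also called 24 higher. The 24 included 15 of the 18 that fell with DAC, namely all except HERC5, OASL and XAF1, and a further 9 that had not been called there: UBE2L6, OAS1, MX2, IFITM3, BST2, LGALS3BP, IFI6, TRIM14 and TRIM21. DAC alone is the shared group here, so the rise of the 15 is not independent of their fall. IFI6, IFI44, DTX3L, TRIM14, TRIM21 and TRIM25 lost their call without 1 or more libraries, all 6 of them without DAC replicate 2, at adjusted p of up to 0.0464 (limma).

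Against ATRA alone, the combination was higher for 4 genes, ISG15, LGALS3BP, TRIM14 and TRIM22, and lower for 0. These were 9.76% and 0% of the 41, near the background of 6.48% and 5.45% of all tested genes. The median was 0.23 (all genes: 0.03). This comparison uses no library of the comparison of DAC with untreated cells and measures the same drug with ATRA present. Of the 18 genes that fell with DAC alone, none was called lower and ISG15 was called higher. Their log2 differences lay between -0.39 (USP18) and 1.12 (ISG15). With 5.45% of all tested genes called lower, a count of 0 among 18 is itself near the background. At an unadjusted limma p under 0.05, 12 of the 41 differed in either direction. The LGALS3BP call stood at adjusted p = 0.00976 and was lost without 7 of the 12 libraries in turn, among them each ATRA and each DAC+ATRA library, at up to 0.0509 (limma).

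The difference between these 2 effects of DAC, with and without ATRA, was tested as an interaction. It was positive for 12 genes and negative for 0, whereas 0.714% and 0.855% of all tested genes were called in these directions, with a median of 0.73 (all genes: 0.03). The 12 were USP18, ISG15, HERC5, IFIT3, IFIT5, OAS2, OAS3, RSAD2, DDX60, XAF1, IFI44 and IFI44L, each of them among the 18 that fell with DAC, a comparison whose libraries the interaction shares. At an unadjusted limma p under 0.05, 21 of the 41 differed in either direction, and DESeq2 called 15. USP18, HERC5 and IFIT5 lost the call without 1 or more libraries (untreated replicate 1 or 2 and DAC+ATRA replicate 3 for each of them), at adjusted p of up to 0.0297 (limma).

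**Figure D2:**
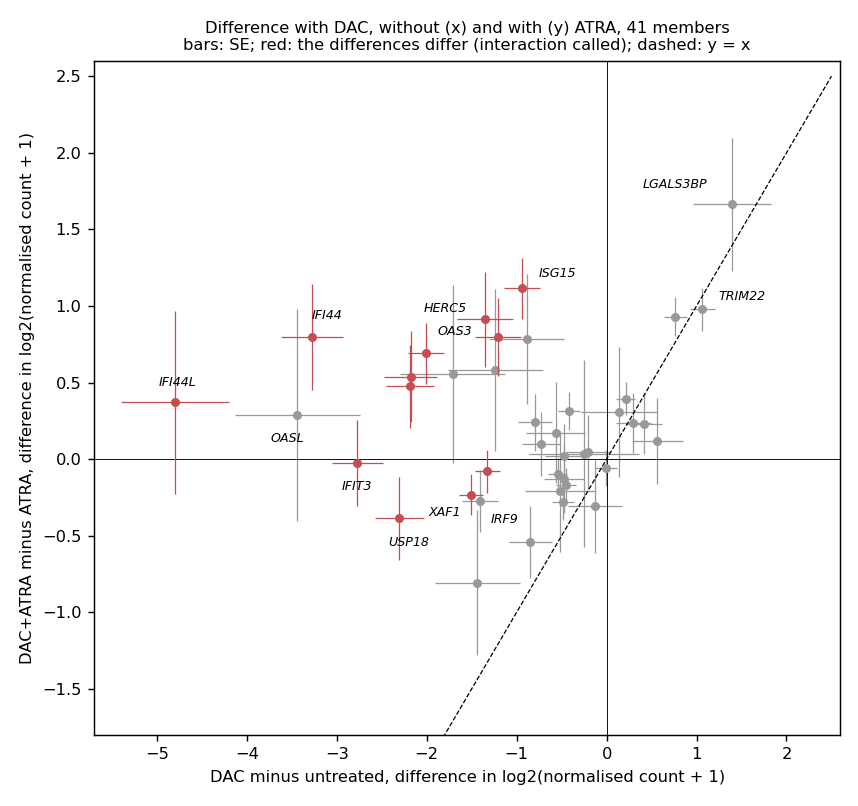
Difference made by DAC without ATRA (x axis) and with ATRA (y axis), in log2(normalised count + 1), for the 41 tested genes, with bars for the SE and red for the 12 genes with a called interaction. The red genes lie between -4.80 and -0.94 on the x axis and between -0.39 and 1.12 on the y axis, while LGALS3BP and TRIM22 lie near the line of equal differences.

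Of the signalling members, IRF9, the DNA-binding part of ISGF3, fell from 117 ± 7.43 in untreated to 44.1 ± 9.91 normalised counts (SD, n = 3) with DAC, 2.65-fold (log2 difference -1.41, SE 0.20, adjusted p = 6.92e-05, limma). With ATRA it stood at 112 ± 16.2 and with the combination at 91.8 ± 9.81, 2.09-fold above DAC (adjusted p = 0.000461, limma). USP18, the protease that removes ISG15 and blocks IFNAR2 signalling, fell 4.94-fold with DAC, from 84.6 ± 17.5 to 16.7 ± 5.97, with 57.9 ± 1.43 under ATRA and 44.5 ± 7.51 under both. STAT2, the partner of IRF9, was called in no comparison and measured 43.8 ± 14.5, 38.6 ± 5.46, 59.1 ± 14.5 and 48.4 ± 17.8 in untreated, DAC, ATRA and DAC+ATRA cells.

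ISG15, the ubiquitin-like modifier itself, measured 132, 183 and 112 normalised counts in the untreated libraries and 84.0, 78.4 and 57.7 in the DAC libraries. In the ATRA libraries it was 80.6, 72.9 and 83.6, and in the DAC+ATRA libraries 185, 170.0 and 162. Every library with a single drug thus lay below every untreated library, while the combination lay within and just above the untreated range. The falls were 1.92-fold with DAC (log2 difference -0.94, SE 0.20, adjusted p = 0.00286, limma) and 1.76-fold with ATRA (-0.82, SE 0.20, adjusted p = 0.00288, limma). The combination was 2.36-fold above DAC and 2.17-fold above ATRA (adjusted p = 8.17e-05 and 0.000445, limma), and the interaction was 2.05 (SE 0.28, adjusted p = 0.000201, limma). Both falls lost their call without untreated replicate 2, in which ISG15 was highest, at adjusted p of 0.0465 for DAC and 0.0319 for ATRA.

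UBE2L6, the conjugating enzyme of ISG15, took another course. It was 37.3, 34.1 and 42.0 in untreated libraries, 26.7, 31.4 and 22.9 with DAC, 95.9, 78.9 and 95.3 with ATRA and 91.0, 94.6 and 87.8 with both drugs. The 6 libraries with ATRA lay above the 6 without, and the rise with ATRA was 2.34-fold (log2 difference 1.23, SE 0.21, adjusted p = 0.000114, limma). The combination was 3.32-fold above DAC (adjusted p = 3.18e-06, limma), and the lower DAC values were not called (log2 difference -0.48, adjusted p = 0.138).

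HERC5, the ligase that attaches ISG15, fell in all 3 treated groups. Its values were 110.4, 126 and 80.3 in untreated libraries, 44.5, 45.5 and 31.6 with DAC, 15.2, 26.8 and 11.7 with ATRA and 28.0, 27.0 and 45.9 with both drugs. No treated library reached the lowest untreated one. The fall was 2.55-fold with DAC (adjusted p = 0.00556, limma), 5.85-fold with ATRA (log2 difference -2.55, SE 0.31, adjusted p = 2.23e-06, limma) and 3.11-fold with both (adjusted p = 0.00032, limma). Here the positive interaction of 2.26 (SE 0.44, adjusted p = 0.005, limma) means that the 2 falls did not add up, since the combination remained low. HERC6, a related ligase of low level, was not tested and stood between 2.43 and 5.86 in group means.

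The IFIT proteins bind viral RNA, and their genes lie side by side on chromosome 10. IFIT3 was 93.3, 122 and 77.2 in untreated libraries, 12.7, 20.4 and 8.71 with DAC, 58.2, 55.1 and 63.5 with ATRA and 72.8, 55.2 and 48.0 with both drugs. The DAC libraries lay below all 9 others, and the 2 groups with ATRA overlapped each other. With DAC it fell 6.82-fold (log2 difference -2.77, SE 0.28, adjusted p = 1.56e-06, limma), the combination was 4.15-fold above DAC (adjusted p = 1.52e-05, limma), and the interaction was 2.74 (SE 0.40, adjusted p = 0.0004, limma). IFIT5 fell 2.31-fold, from 61.2 ± 14.0 to 25.7 ± 4.64, and measured 58.1 ± 14.2 with ATRA and 101 ± 19.7 with both, 3.81-fold above DAC (adjusted p = 9.13e-06, limma). IFIT2 was called in no comparison at 13.9 ± 5.08, 5.96 ± 4.44, 4.82 ± 1.65 and 8.00 ± 3.40 in the order above, and IFIT1, not tested, had group means of 0.825 to 5.40. How many reads fit several IFIT genes, and how these were counted, was not measured, so their separate values are uncertain to that extent.

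The oligoadenylate synthetases OAS1, OAS2 and OAS3 make the messenger that activates RNase L, and their genes are neighbours on chromosome 12. OAS3 changed direction between the drugs. It was 71.5, 77.1 and 57.7 normalised counts in untreated libraries, 14.0, 14.1 and 21.8 with DAC, 195, 164 and 161 with ATRA and 279, 276 and 286 with both drugs. None of the 4 groups overlapped another. The fall with DAC was 4.01-fold (log2 difference -2.00, SE 0.20, adjusted p = 1.25e-06, limma) and the rise with ATRA 2.51-fold (1.33, SE 0.20, adjusted p = 2.77e-05, limma). The combination was 4.06-fold above untreated (adjusted p = 1.56e-07, limma) and 16.3-fold above DAC (log2 difference 4.02, SE 0.20, adjusted p = 8.79e-12, limma). Its excess over ATRA alone was not called (log2 difference 0.69, adjusted p = 0.0182), and the interaction was 2.69 (SE 0.28, adjusted p = 1.21e-05, limma).

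OAS2 was 74.7, 60.9 and 37.6 in untreated libraries, 12.7, 11.0 and 10.9 with DAC, 34.0, 25.3 and 25.1 with ATRA and 32.2, 50.7 and 41.9 with both drugs. The DAC libraries again lay below all others, at a 4.52-fold fall (log2 difference -2.18, SE 0.30, adjusted p = 4.1e-05, limma). The combination was 3.35-fold above DAC (adjusted p = 0.000159, limma) with an interaction of 2.72 (SE 0.42, adjusted p = 0.000627, limma), and both were lost when only the transcript row with the most reads stood for each gene (adjusted p = 0.0607 and 0.18). OAS1 was 72.0 ± 5.32 in untreated and 43.4 ± 8.19 in DAC, a difference that was not called (adjusted p = 0.022), and at 96.3 ± 18.6 the combination was 2.19-fold above DAC (adjusted p = 0.000382, limma).

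OASL, a relative without synthetase activity, was 91.0, 96.6 and 35.1 in untreated libraries but 1.27, 9.41 and 9.80 with DAC, 4.48, 10.4 and 3.34 with ATRA and 1.40, 13.5 and 13.3 with both drugs. All 9 treated libraries lay below the lowest untreated library. The falls were 10.8-fold with DAC (log2 difference -3.44, SE 0.69, adjusted p = 0.002, limma), 10.6-fold with ATRA (-3.41, adjusted p = 0.000643) and 8.67-fold with both (-3.12, adjusted p = 0.00134). The interaction of 3.73 was not called (adjusted p = 0.0381). With DAC these values rest on 1, 6 and 9 reads.

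**Figure D3:**
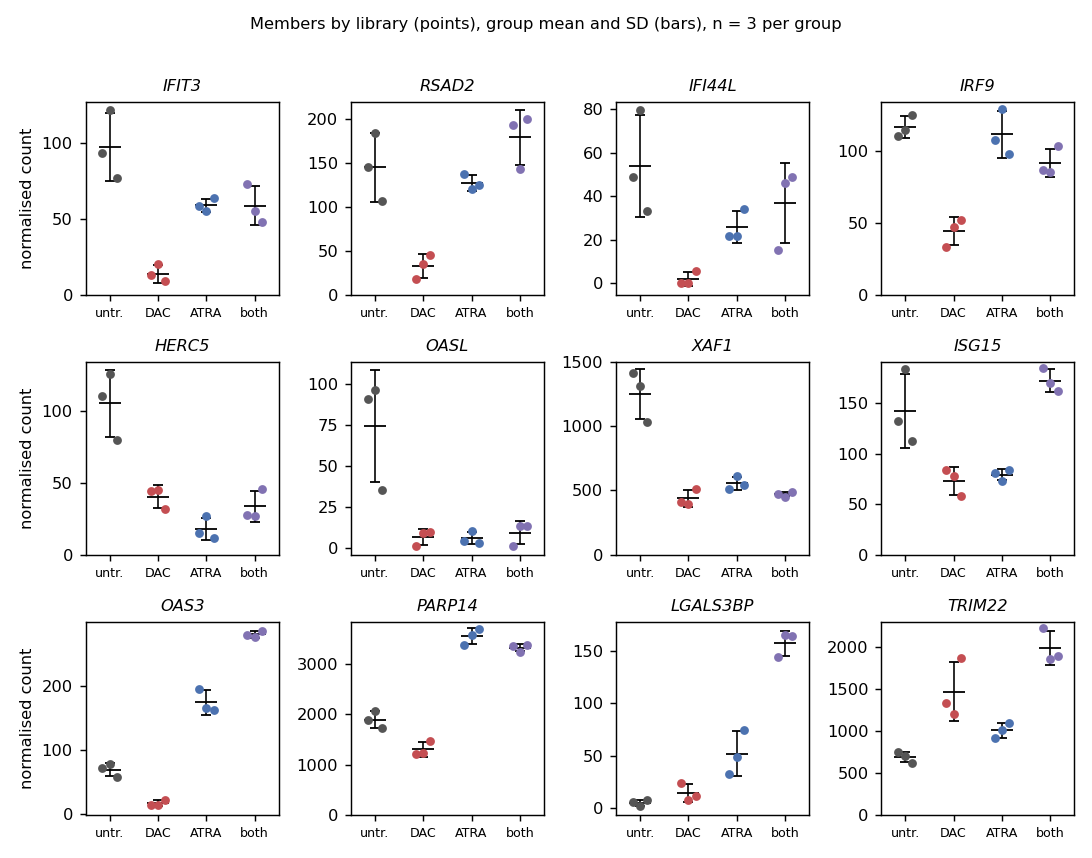
Normalised count (y axis, linear) in each library (points) of the 4 groups (x axis; untr., untreated; both, DAC+ATRA) for 12 genes, with the group mean and SD (bars, n = 3). IFIT3, RSAD2, IFI44L and IRF9 are low with DAC alone, HERC5, OASL and XAF1 are low in all 3 treated groups, and OAS3 and PARP14 are low with DAC and high in the 2 groups with ATRA.

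The MX GTPases trap viral nucleocapsids. MX2 rose 1.45-fold with ATRA, from 323 ± 35.6 to 468 ± 29.3, and stood at 585 ± 56.1 with the combination, 2.41-fold above the 241 ± 11.0 of DAC alone (adjusted p = 1.74e-07, limma). MX1, on the same chromosome, was called in no comparison, with 16.0 ± 3.05, 8.16 ± 1.60, 9.44 ± 3.68 and 17.4 ± 8.38 in untreated, DAC, ATRA and DAC+ATRA cells.

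RSAD2, or viperin, makes a chain-terminating nucleotide, and CMPK2 next to it on chromosome 2 supplies the substrate. RSAD2 was 145, 184 and 106 in untreated libraries, 17.8, 34.5 and 44.6 with DAC, 137, 119.8 and 125 with ATRA and 193, 143 and 200.1 with both drugs. Only the DAC libraries stood apart, below every other library. It fell 4.56-fold with DAC (log2 difference -2.19, SE 0.27, adjusted p = 1.27e-05, limma), and the combination was 5.69-fold above DAC (2.51, SE 0.27, adjusted p = 6.31e-07, limma), with an interaction of 2.66 (SE 0.38, adjusted p = 0.000325, limma). CMPK2 fell 1.74-fold with DAC, from 200.2 ± 45.2 to 113 ± 9.58, with 189.7 ± 47.4 under ATRA and 220.1 ± 8.10 under both. The 2 genes overlap on opposite strands. Whether strand was used in counting is not given in the sources used here, so reads of the overlap may count for either. The RNA helicase DDX60 fell 2.51-fold, from 563 ± 105 to 223 ± 32.8 (log2 difference -1.32, SE 0.14, adjusted p = 2.43e-06, limma), and stood at 729.8 ± 26.1 with ATRA and 691 ± 60.6 with both. The exonuclease gene ISG20 was called in no comparison, with group means of 10.2 to 13.5.

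Of the 6 membrane and secreted restriction factors, none was called lower with DAC, a count near the background of 3.67% of all tested genes. IFITM3, which blocks fusion of viruses in endosomes, was 70.0, 61.7 and 47.7 in untreated libraries, 106, 59.6 and 79.5 with DAC, 198, 173 and 199 with ATRA and 232, 216 and 219.5 with both drugs. Untreated and DAC libraries overlapped, and all 6 libraries with ATRA lay above them. The rise was 3.17-fold with ATRA (log2 difference 1.67, SE 0.20, adjusted p = 1.82e-06, limma) and 3.72-fold with both (1.90, SE 0.20, adjusted p = 3.64e-07, limma). BST2, or tetherin, which holds virions at the cell surface, rose 1.53-fold with ATRA, from 1274 ± 36.0 to 1946 ± 77.6, and 2.00-fold with both, to 2561 ± 232 (adjusted p = 0.000161 and 4.65e-07, limma), with 1485 ± 198 under DAC. IFITM1, IFITM2 and the scramblase PLSCR1 were called in no comparison. Their group means were 9.83 to 19.2, 18.0 to 22.9 and 141 to 190.4, and reads may be shared between the closely related IFITM genes.

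LGALS3BP, a secreted glycoprotein that binds galectins, had the largest rise of all 41 genes. It was 5.44, 1.62 and 7.53 in untreated libraries, 24.2, 7.84 and 10.9 with DAC, 32.3, 49.1 and 74.4 with ATRA and 144, 165 and 164 with both drugs. The groups did not overlap, but the highest untreated value (7.53) and the lowest DAC value (7.84) nearly met. The untreated values rest on 7, 2 and 12 reads and the DAC values on 19, 5 and 10. With ATRA it rose 9.55-fold (log2 difference 3.26, SE 0.43, adjusted p = 6.61e-06, limma) and with both 30.3-fold (4.92, SE 0.43, adjusted p = 3.18e-08, limma). At these few untreated reads, the latter difference ran from 4.09 to 5.27 over the other fits. The difference of DAC from untreated was 1.40 and was not called (adjusted p = 0.0342). The combination was 11.5-fold above DAC and 3.17-fold above ATRA (adjusted p = 3.9e-06 and 0.00976, limma), and the interaction was 0.26 (adjusted p = 0.908).

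XAF1, a pro-apoptotic antagonist of XIAP, fell in all treated groups and kept these calls in every fit. It was 1411, 1311 and 1031 in untreated libraries, 409.6, 395 and 515 with DAC, 513, 612 and 543 with ATRA and 475, 453 and 490.1 with both drugs. The 9 treated libraries lay between 395 and 612, far below the untreated ones. The falls were 2.83-fold with DAC (log2 difference -1.50, SE 0.13, adjusted p = 2.94e-07, limma), 2.23-fold with ATRA (-1.16, SE 0.13, adjusted p = 1.11e-06, limma) and 2.62-fold with both (-1.39, SE 0.13, adjusted p = 1.08e-07, limma). As with HERC5, the interaction of 1.27 (SE 0.19, adjusted p = 0.000453, limma) belongs to falls that did not add up. IFI6, a small mitochondrial protein that counters apoptosis, had 2, 0 and 2 reads in the DAC libraries and 5, 9 and 19 with the combination. The combination was called higher than DAC (log2 difference 2.44, SE 0.58, adjusted p = 0.00336, limma), a difference that at these few reads ran from 1.34 to 3.73 over the alternatives.

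IFI44 and IFI44L, neighbours on chromosome 1 whose products bear on antiviral defence, had, with OASL, the largest falls with DAC. IFI44L was 49.0, 79.6 and 33.2 in untreated libraries, 0, 0 and 5.44 with DAC, 21.5, 21.6 and 34.3 with ATRA and 15.4, 46.2 and 49.0 with both drugs. The DAC values rest on 0, 0 and 5 reads, and the other 9 libraries had between 11 and 98. The log2 difference of -4.80 (SE 0.60, adjusted p = 1.56e-05, limma) therefore moved with the constant added before the logarithm and the model, between -7.06 and -3.13, without loss of the call. The combination was 4.18 above DAC on the same scale (adjusted p = 2.38e-05, limma), and the interaction was 5.17 (SE 0.85, adjusted p = 0.00109, limma). Its difference with ATRA alone was not called (log2 difference -0.98).

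IFI44 was 116, 172 and 87.2 in untreated libraries, 7.63, 9.41 and 20.7 with DAC, 20.6, 23.1 and 15.9 with ATRA and 43.4, 28.1 and 34.7 with both drugs. It fell in all 3 treated groups, and the combination lay above either drug alone in every library. The falls were 9.71-fold with DAC (log2 difference -3.28, SE 0.34, adjusted p = 2.12e-06, limma), 5.88-fold with ATRA (-2.56, SE 0.34, adjusted p = 7.69e-06, limma) and 3.38-fold with both (-1.76, SE 0.34, adjusted p = 0.000433, limma). The combination was 2.87-fold above DAC (adjusted p = 0.00229, limma), and the interaction was 4.08 (SE 0.49, adjusted p = 4.7e-05, limma). IFI35, a partner of NMI, was called only for the combination against untreated, 2.07-fold, at 24.3 ± 6.11 and 51.3 ± 10.4. SAMD9 and SAMD9L, which restrain translation of poxviruses, were called in no comparison, with 92.3 ± 24.8, 66.4 ± 19.9, 124 ± 4.45 and 114 ± 13.2 for SAMD9 and 108 ± 32.2, 58.8 ± 15.7, 144 ± 15.2 and 99.1 ± 16.8 for SAMD9L. EPSTI1, not tested, had at most 9 reads in any library.

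**Figure D4:**
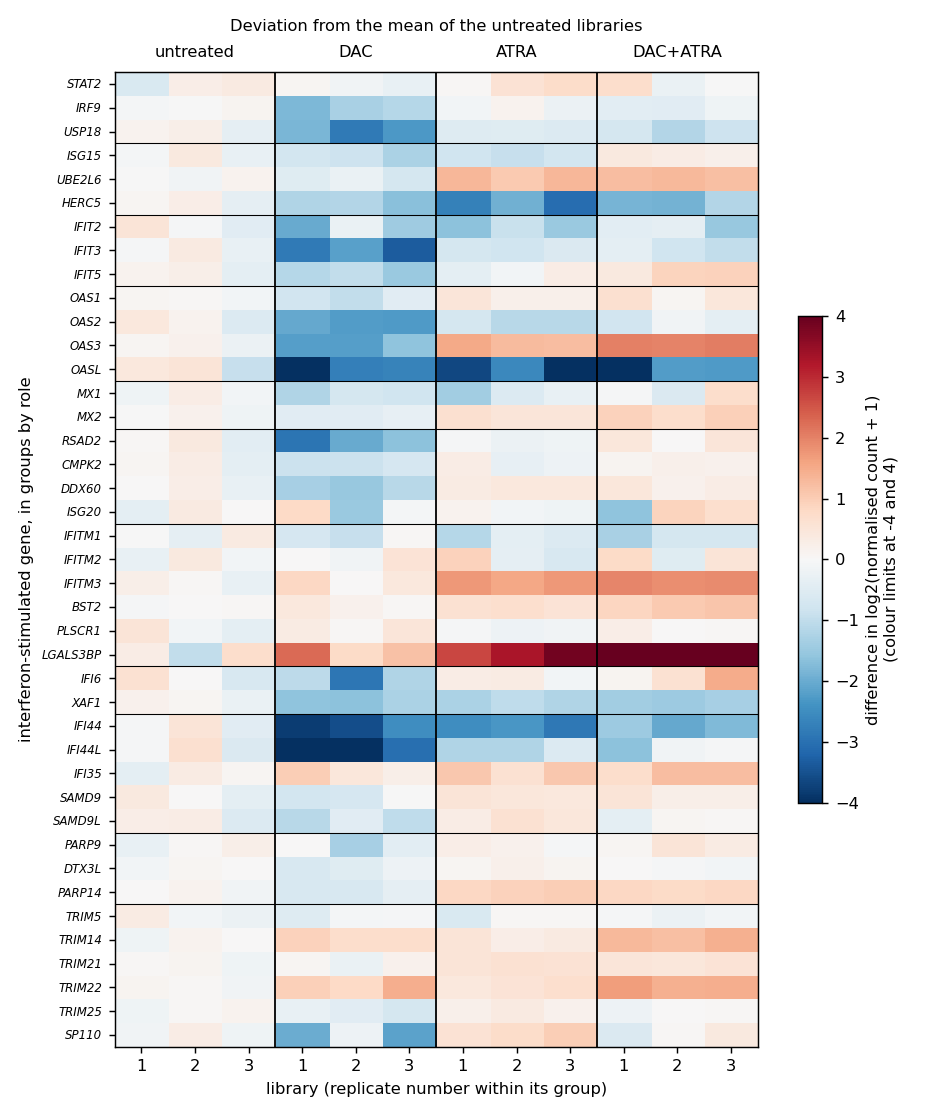
Deviation of each library from the untreated mean in log2(normalised count + 1) (colour, limited at -4 and 4) for the 41 tested genes (rows, grouped by role) in the 12 libraries (columns, by group and replicate). Blue prevails in the 3 DAC columns, where the medians are -0.74, -0.69 and -0.70, while UBE2L6, OAS3, IFITM3 and LGALS3BP are red and HERC5, OASL, XAF1 and IFI44 blue in the 6 columns with ATRA.

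PARP14, PARP9 and its partner DTX3L, an E3 ligase, act in ADP-ribosylation. PARP14, like OAS3, fell with DAC and rose with ATRA, from 1894 ± 175 to 1301 ± 153 (1.46-fold lower, adjusted p = 0.00126, limma) and 3549.5 ± 160.5 (1.88-fold higher, adjusted p = 9.71e-07, limma). The combination, at 3318 ± 69.3, was 1.76-fold above untreated and 2.56-fold above DAC (adjusted p = 4.23e-06 and 5.67e-09, limma). DTX3L fell 1.37-fold with DAC, from 1199 ± 70.8 to 882 ± 136, at an adjusted p = 0.00976 (limma), a call that was lost in 7 alternative settings. PARP9, whose start overlaps that of DTX3L on the other strand, was called in no comparison, with group means of 17.8 to 31.4.

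The 2 genes that rose with DAC belong to the TRIM family. They are 4.88% of the 41, near the 4.3% of all tested genes. TRIM22, which restricts retroviral transcription, was 746, 707 and 622 in untreated libraries, 1334, 1206 and 1871 with DAC, 916, 1008 and 1101 with ATRA and 2223, 1855 and 1892 with both drugs. Only the DAC and DAC+ATRA libraries overlapped. It rose 2.09-fold with DAC (log2 difference 1.07, SE 0.14, adjusted p = 3.01e-05, limma), 1.46-fold with ATRA (0.54, SE 0.14, adjusted p = 0.00486, limma) and 2.87-fold with both (1.52, SE 0.14, adjusted p = 6.25e-08, limma). The combination was 1.97-fold above ATRA (adjusted p = 5.59e-05, limma), and the interaction was -0.09, so the differences added up on the log scale within their error. The gene lies within the span of TRIM5 on the other strand, which was called in no comparison at group means of 54.6 to 63.5.

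TRIM14, an adaptor of mitochondrial antiviral signalling, was 201, 251 and 227 in untreated libraries, 426, 364 and 364 with DAC, 321, 273 and 289 with ATRA and 557, 525 and 601 with both drugs. The 4 groups did not overlap. It rose 1.70-fold with DAC (log2 difference 0.76, SE 0.13, adjusted p = 0.00038, limma) and 2.48-fold with both (1.31, SE 0.13, adjusted p = 1.41e-07, limma), and the combination exceeded ATRA 1.90-fold (adjusted p = 3.59e-05, limma). TRIM21, the cytosolic antibody receptor, rose 1.48-fold with ATRA, from 861 ± 80.0 to 1269 ± 46.2, and was at 863 ± 139 with DAC and 1221 ± 39.6 with both. TRIM25, the ligase that activates RIG-I, fell 1.40-fold with DAC, from 1734 ± 196 to 1241 ± 165 (adjusted p = 0.00869, limma), and was at 2045 ± 134 with ATRA and 1688 ± 149 with both. The nuclear body protein SP110 was called in no comparison at 13.1 ± 2.75, 5.23 ± 4.98, 22.9 ± 3.56 and 13.1 ± 4.49.

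The genes fell into a few courses over the 3 comparisons with untreated cells. DAC lowered 11 of them without a call for ATRA or the combination: IRF9, USP18, IFIT3, IFIT5, OAS2, RSAD2, CMPK2, DDX60, IFI44L, DTX3L and TRIM25. HERC5, OASL, XAF1 and IFI44 fell in all 3, and ISG15 fell with each drug alone. OAS3 and PARP14 fell with DAC and rose with ATRA and with both. UBE2L6, MX2, IFITM3, BST2, LGALS3BP and TRIM21 rose with ATRA and with both. TRIM22 rose in all 3, and TRIM14 with DAC and with both. Among the 11, a missing call does not show a return to the untreated level. USP18 with both drugs (log2 difference -0.90, adjusted p = 0.0116, limma) and OAS2 with ATRA (-0.97, adjusted p = 0.0146, limma) lay below every untreated library. DESeq2 called both of these lower. IFIT3 also lay below every untreated library with ATRA (-0.69) and with both (-0.72). Others lay above, such as IFIT5 with both drugs (0.72). In 12 genes no comparison of the 6 gave a call. Of the 11 genes with a single transcript row, for which nothing was summed, 7 fell (63.6%) and 1 rose (9.09%) with DAC. Among all tested genes these shares were 3.67% and 4.3%. With the combination, 10 of the 11 were higher than with DAC (90.9%; all tested genes: 9.03%). The shares among all genes with a single row were not computed.

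The pathway upstream was described with 33 genes, of which 24 were tested. With DAC, 0 rose and 4 fell, the latter 16.7% of the 24 against 3.67% of all tested genes: IRF8 (log2 difference -0.43), SOCS3 (-1.29), and the sensors DHX58 (-0.82) and CGAS (-0.82). At an unadjusted limma p under 0.05, 8 differed in either direction. ATRA raised 10 and lowered 1, or 41.7% and 4.17%, against 12.1% and 14% of all tested genes. It raised, among others, the receptor chain IFNAR2, from 11.4 ± 5.24 to 47.5 ± 10.1 (2.03, adjusted p = 4.84e-05, limma), the kinase TYK2 (0.87), the RNA sensor RIG-I, listed as DDX58 (1.24), and the feedback inhibitor SOCS3 (2.32), and lowered CGAS (-0.76). IRF1, a factor that binds elements like the ISRE, rose from 126 ± 12.1 to 1139 ± 149.8 with ATRA (3.16, adjusted p = 1.12e-12, limma) and measured 87.6 ± 12.3 with DAC and 791 ± 17.9 with both. With the combination, 5 were higher and 2 lower than in untreated cells (20.8% and 8.33%; all tested genes 14.5% and 14.4%), and 9 were higher and 0 lower than with DAC (37.5% higher; all tested genes 9.03%). Against ATRA the combination raised 0 and lowered 3 (12.5%; all tested genes 5.45%), IRF8 (-0.85), SOCS3 (-2.70) and the phosphatase PTPN6 (-0.87), and only SOCS3 had a called interaction (-1.41), opposite in sign to the 12 interferon-stimulated genes.

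Of the ligands, IFNA1, IFNE, IFNK and IFNW1 were listed at 0 in all libraries. IFNA2 had 0, 1 and 0 reads in the DAC libraries and 0 in the other groups. IFNB1, the interferon made by most cells, was below the filter and was chosen for mention after its values were seen. It had 13, 8 and 13 reads in the untreated libraries, 0, 1 and 0 in the DAC libraries and 0 in all 6 libraries with ATRA. Against a floor of 3 reads per library, IFNB1 was at least 2.10-fold lower with DAC, 3.33-fold with ATRA and 2.33-fold with both, without a test.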

How the data were processed

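RNA from 12 MOLM-13 libraries, 3 per group as the labels name them, was depleted of ribosomal RNA and sequenced from strand-specific libraries. Per the submitters' processing notes and the study's methods, the authors used FastQC, STAR on hg38, HTSeq and DESeq2 and tested protein-coding transcripts at a false discovery rate of 0.01; tool versions, annotation release and strand setting are not given in the sources used here. The deposited values are a signal, reads per Ensembl transcript that the authors divided by a size factor for each library, not raw counts. Whole reads were recovered for 100% of the values of every library (tolerance 0.01 reads). The depth per library and its range stand at the start. Floors cover counting error only, while SD and SE measure the spread between replicate libraries.

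Of 100502 transcript rows, 69 exact duplicates were removed and the rest summed over 46639 symbols; GENCODE release 44 on GRCh38, the same assembly, matched 88.9% of the rows and gave biotypes and positions. Protein-coding symbols with at least 10 normalised counts in 3 libraries (10640) were fitted together, without covariates, with limma 3.58.1 (R 4.3.3; trend) on log2(normalised count + 1), and p-values were adjusted over all of them (Benjamini-Hochberg, threshold 0.01). Because the table holds normalised values, limma took the place of the count test of the study; edgeR 4.0.16 and DESeq2 1.42.0 were run on the recovered reads as alternatives. With the deposited size factors edgeR called 17 of the 41 tested genes lower with DAC, 10 higher and 6 lower with ATRA and 23 higher with DAC+ATRA than with DAC. Other alternatives were TMM and total-count scaling, other added constants, filters and thresholds, a 2-fold minimum, the highest transcript row per gene, only the compared groups, a replicate block, and each library left out.

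The genes and lists were chosen with earlier results of these data known. All 46 are named; values per library and full statistics are given for up to 4 called genes with the largest change in each direction of each of the 6 comparisons, with a mean of at least 10 normalised counts, and for others mean ± SD.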

Additional observations from a re-analysis of the deposited data

Results flagged for a closer look

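For 12 genes the effect of DAC differed between cells without and with ATRA by the test of the difference itself (limma interaction, adjusted p below 0.01). The differences, DAC+ATRA minus ATRA less DAC minus untreated in log2(normalised count + 1), were 1.92 for USP18, 2.05 for ISG15, 2.26 for HERC5, 2.74 for IFIT3, 2.00 for IFIT5, 2.72 for OAS2, 2.69 for OAS3, 2.66 for RSAD2, 1.24 for DDX60, 1.27 for XAF1, 4.08 for IFI44 and 5.17 for IFI44L. Against untreated cells, the combination was lower in HERC5, XAF1 and IFI44, higher in OAS3 and not called in the remaining genes. Of these, USP18 was close to a call (-0.90, adjusted p = 0.0116, limma). The untreated libraries carry the label of another time than the treated ones. Their 3 libraries enter each of these 12 differences with the same sign.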

How the results depend on the processing

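The members' median kept its sign in each comparison under each scaling, and the lower counts of the combination against DAC, against ATRA and of the interaction were 0 in all fits. Counts that moved by over 1.5 times were the following. Fitted on the untreated and DAC libraries alone, DAC raised 1 and lowered 10 genes (18 with all groups). At an adjusted p below 0.05 the combination exceeded ATRA in 8 genes, against 4 at 0.01. With at least a 2-fold change required, DAC raised 1, ATRA raised 4 and the combination exceeded ATRA in 2. On leaving out each library in turn, the counts were 10 to 17 lower and 2 to 2 higher with DAC, 7 to 10 higher and 4 to 6 lower with ATRA, 9 to 11 higher and 3 to 5 lower with both, 19 to 25 higher than DAC, 3 to 6 higher than ATRA and 9 to 14 for the interaction. In all, 62 of 89 calls held in every fit, 20 were lost in 1 or more alternatives and 24 without 1 or more libraries; no gene reversed. Fitted with the replicate number as a block, 15 genes were lower with DAC, 22 higher in the combination than with DAC, and the interaction was called for 12. The labels do not say whether the numbers pair the samples. Of 18 correlations between same-numbered libraries (-0.263 to 0.114) only 2 exceeded 0.1. They show no strong shared shift but cannot exclude pairing. DESeq2 called 19 genes lower with DAC, 24 higher in the combination than with DAC and 15 interactions. The lower depth of the DAC libraries limits IFI6, IFI44L and OASL, which had 0 to 9 reads there. It also limits IFIT2, MX1 and SP110, which had 2 to 8 reads there and no call. Few DAC reads stand behind the falls of IFI44 (6, 6 and 19) and OAS2 (10, 7 and 10), among others.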

Other observations

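A further 32 interferon-stimulated genes outside the 46, of which 28 were tested, were described by the same fit. The share of all tested genes that passed stands in brackets after each pair of counts. With DAC 5 of the 28 fell and 3 rose, or 17.9% and 10.7% (3.67% and 4.3%). Those that fell were EIF2AK2, APOL6, HELZ2, RTP4 and SHFL, with log2 differences from -0.59 (EIF2AK2, the kinase PKR) to -1.45 (SHFL, an inhibitor of ribosomal frameshifting). TNFSF10, or TRAIL, rose by 0.89, PARP12 by 0.61 and TDRD7 by 0.56. ATRA raised 10 and lowered 2, or 35.7% and 7.14% (12.1% and 14%). The lowered genes were TDRD7 (-0.56) and the chemokine CXCL11, which had 0, 1 and 0 reads with ATRA and 15.4 ± 1.55 normalised counts in untreated cells (SD, n = 3). Of the 10, BATF2, a transcription factor, had 1, 0 and 3 reads in untreated cells and 17.1 ± 14.8 normalised counts with ATRA. The combination was higher than untreated in 7 and lower in 2, the latter 7.14% (14.5% and 14.4%). It exceeded DAC alone in 16, or 57.1% (9.03%), with 2 lower, TNFSF10 (-1.01) and TDRD7 (-0.59), or 7.14% (9.74%). Against ATRA, 2 were higher and 2 lower, or 7.14% each, near the background (6.48% and 5.45%). The interaction was called for APOL6, at 0.92, and in the other direction for TNFSF10, at -1.33. APOL6 fell from 2470.2 ± 234 in untreated cells to 1319 ± 108 with DAC (adjusted p = 4.25e-06, limma) and was at 2381 ± 50.4 with ATRA and 2406 ± 117 with both. The median log2 difference of the 28 was -0.32 with DAC, 0.57 with ATRA and 0.78 for the combination against DAC.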
